A study of Mus musculus with 41 samples.

Results

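The comparison described here set cells given guides against Brd8 directly against cells given guides against Eed, at day 7 of a mouse neural differentiation. It took the 3 Brd8 and 3 Eed libraries of that day by their titles, 6 of the 41 libraries of the study, with no control library in the test and with every expressed gene included. All groups used here came from one mouse embryonic stem cell line, R1-iCas9, in which doxycycline switches on Cas9. The line was transfected at day 0 with a pool of synthetic guides against 1 gene, or with a non-targeting guide (NT). Every culture was then carried through bFGF, the GSK3β inhibitor CHIR99021, retinoic acid and the Smoothened agonist SAG towards spinal cord neural progenitors, which is what the labels call the cells. The groups differ in the target of the guides and in the day: Brd8 and Eed at days 7, 9 and 11, and, as levels for orientation, Ezh2 and NT of the same days. Each transfected culture is a population of cells that can carry different edits or none, not a clone.

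Eed and Ezh2 are core subunits of Polycomb repressive complex 2 (PRC2), which methylates histone H3 and keeps developmental regulators, among them the Hox genes, silent. Ezh2 carries the methyltransferase activity and Eed binds the methyl mark and is needed for that activity. Brd8 is a bromodomain subunit of NuA4/TIP60, a complex that acetylates histones and is mostly linked to active genes. In the neural tube the Hox genes are switched on in the order of their position in the clusters, and retinoic acid, FGF and Wnt signals set how far along the cluster that goes.

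The 6 libraries held 8745715 to 13974028 estimated counts each, of which 12% to 15.8% fell on Rn45s, the ribosomal RNA precursor, and a count of 3 in 1 library stood for 0.225 to 0.37 CPM (counts brought to the same total per library). The labels do not say whether replicates were separate cultures, so p-values measure the spread between these libraries, which may be technical. Across genes within these libraries, log2 CPM correlated at 0.977 to 0.982 between Brd8 libraries, 0.975 to 0.984 between Eed libraries and 0.972 to 0.986 between the groups, which is as high as within a group. Genes are not independent replicates in these correlations. Eed replicate 2 stood apart on the first principal component (score 36.5, against −12.4 to −0.185 in the other 5 libraries), and Brd8 replicate 1 on the second (30.5, against −16.9 to 4.07). The neural progenitor markers (Sox1, Sox2, Sox3, Pax6, Nes, Olig2 and Nkx6-1) summed to 1167 to 1314 CPM in Brd8 libraries, 1201 to 1295 CPM in Eed libraries and 1479 to 1493 CPM in NT libraries. Neuron markers summed to 1025 to 1212 CPM in Brd8, 979 to 1178 CPM in Eed and 1515 to 1588 CPM in NT libraries. For neural crest markers the sums were 50 to 118, 73.4 to 95.5 and 6.16 to 17.1 CPM in the same order. For stem cell markers they were 5.04 to 20.55, 11.96 to 23.56 and 37.46 to 67.76 CPM. No marker in the sets for neural progenitors, stem cells, neurons, neural crest, mesoderm, endoderm, endothelium and blood, or muscle passed the test between Brd8 and Eed. These sets held no epithelial markers, and genes of epithelia that did pass, Cdh1 among them, are described with the called genes. Ptprc, of blood cells, and Myod1, of muscle, were at 0 in all 6 libraries. In RNA from whole cultures, fewer cells of a type and less RNA per cell cannot be told apart.

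The targeted genes were read first. Brd8 transcripts were at 87.8, 87.9 and 94.7 CPM in Brd8 libraries, against 102, 100 and 101 CPM in Eed libraries. The 2 groups did not overlap, but the log2 difference of −0.16 ± 0.0926 (SE) did not pass the test (adjusted p = 0.952, edgeR's quasi-likelihood test with Benjamini-Hochberg adjustment, as for every adjusted p here). Eed transcripts were at 30.8, 30.1 and 31.0 CPM in Brd8 libraries, against 27.9, 36.1 and 27.7 CPM in Eed libraries, with overlap and a log2 difference of 0.01 ± 0.155 (adjusted p = 0.999). Transcript counts do not read edits in the sequence, so these levels do not check the labels. The Eed exons share 261 bases (6.8% of their length) with E230029C05Rik on the opposite strand, and the sources used here do not say whether counting used strand.

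Few genes passed the test between Brd8 and Eed libraries at day 7. Of 12897 genes tested, 11 passed an adjusted p of 0.05 (0.0853%): 6 were higher in Brd8 libraries (0.0465%) and 5 were lower (0.0388%). Among the genes higher in Brd8 than in Eed libraries were the retinoic acid degrading enzyme Cyp26b1, the transcription factor Prdm8, and the Hox genes Hoxa5, Hoxb8 and Hoxb9. The genes lower in Brd8 than in Eed libraries were the cadherin genes Cdh1 and Cdh3, the epithelial protease gene St14, the scaffold protein gene Ahnak and the matrix link protein gene Hapln1. The change was at least 2-fold in 8 of them, 3 higher and all 5 lower. In all 11 the Brd8 and Eed libraries did not overlap, as in 1442 of the 12897 tested genes (11.2%), and 698 genes (5.41%) had an unadjusted p under 0.05. The median log2 fold change over all tested genes was 0.00, and 6416 of them (49.8%) were positive.

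The count of 11 depended on single libraries. Without Eed replicate 2, which stood apart, 6 genes were called, all among the 11, with Ahnak, Cdh1, Hoxa5, Hoxb9 and Prdm8 in that number. Without Brd8 replicate 1, 9 were called, 8 of them among the 11. Leaving out Brd8 replicate 2 gave 7, all among the 11, and leaving out Eed replicate 3 gave 31, which held all 11. With all 41 libraries in the fit 14 were called, 4 of them among the 11, with Ahnak, Cyp26b1 and Prdm8 in that number. Over 13 alternative settings all 11 genes kept their direction, and 3 were called in each, Ahnak and Prdm8 among them.

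**Figure D1:**
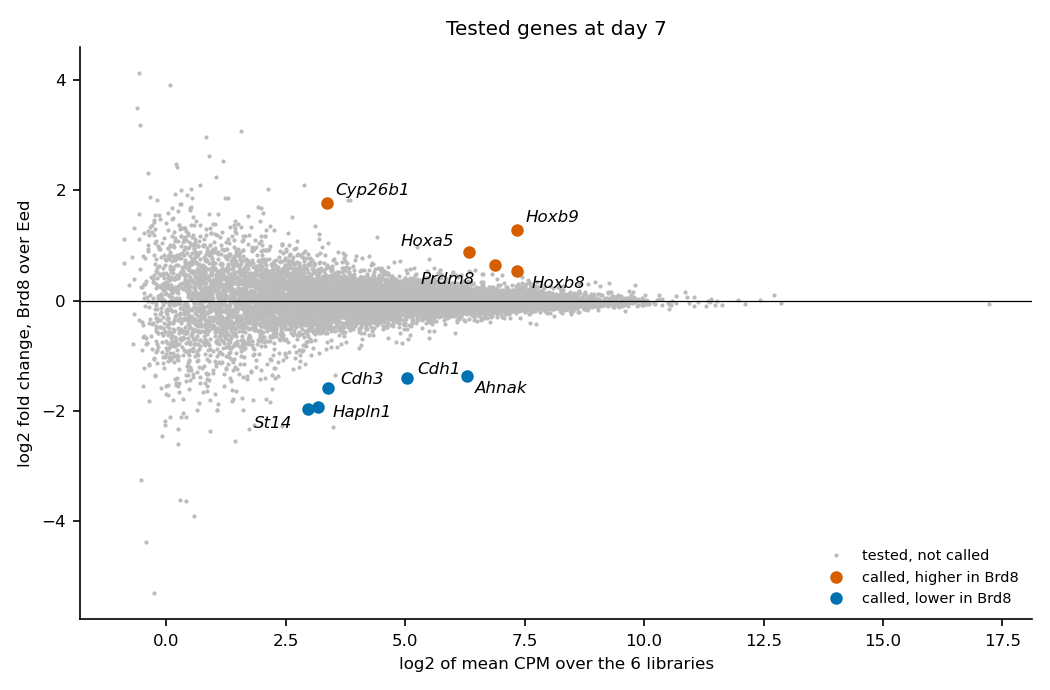
Log2 fold change of Brd8 over Eed at day 7 (vertical axis) against log2 of the mean level in CPM over the 6 libraries (horizontal axis), 1 point per gene. The 5 genes shown as called higher in Brd8 are orange and the 5 called lower are blue. The cloud of the other genes narrows around 0 as the level rises. Some genes that were not called lie close to called ones, such as Slit3 near Hoxb8 and Cldn4 near Cdh3.

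How little the other genes differed can be given as an interval. The 95% interval of the fold change lay inside 2-fold in both directions for 9962 of 12897 tested genes (77.2%) and inside 1.5-fold for 7516 (58.3%), with a median half-width of 0.36 on the log2 scale. For orientation, each group was also set against the NT libraries of day 7 in a fit of its own. Here 1171 of 12968 genes were called for Brd8 over NT (9.03%), 449 higher (3.46%) and 722 lower (5.57%), and 1787 of 12776 for Eed over NT (14.0%), 749 higher (5.86%) and 1038 lower (8.12%). Those comparisons share the NT libraries. The Brd8 count was 742 without Brd8 replicate 1 and 763, 603 and 582 without NT replicates 1, 2 and 3, and the Eed count was 1154, 1007 and 1025 without the same NT replicates. All 5 genes lower in Brd8 than in Eed libraries were called higher in Eed over NT (log2 1.09 to 3.67, adjusted p at most 0.00106), and none was called in Brd8 over NT (log2 −0.28 to 1.73, adjusted p at least 0.115). Of the genes higher in Brd8 than in Eed libraries, Cyp26b1 (log2 2.09), Hoxb8 (log2 0.76) and Prdm8 (log2 0.35) were called higher in Brd8 over NT (adjusted p at most 0.012). They were not called in Eed over NT (log2 0.32, 0.23 and −0.30, adjusted p at least 0.0565). Hoxb9 was called higher in both, with log2 2.61 in Brd8 over NT and 1.34 in Eed over NT.

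Of the genes higher in Brd8 than in Eed libraries, 3 were Hox genes. Hoxb9, which patterns thoracic levels of the body axis, lies on chromosome 11 from 96271457 to 96276595 on the plus strand (GRCm38). It was at 237, 303 and 146 CPM in Brd8 libraries, against 77.4, 114 and 92.9 CPM in Eed libraries, 2.42-fold higher with a log2 fold change of 1.27 ± 0.176 (adjusted p = 0.00219). All 3 Brd8 libraries stood above all 3 Eed libraries. Ezh2 libraries held 108, 154 and 96.6 CPM and overlapped both groups, while NT libraries, at 46.3, 40.2 and 24.0 CPM, lay below both. The call was lost with DESeq2's Wald test and with all 41 libraries in the fit, where its highest adjusted p was 0.0779.

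Hoxb8, its neighbour 5.3 kb further along (chromosome 11, 96281905 to 96285315, plus strand), differed less. It was at 214, 195 and 162 CPM in Brd8 libraries, against 132, 129 and 134 CPM in Eed libraries, 1.45-fold higher (log2 0.53 ± 0.0967, adjusted p = 0.0261). The groups did not overlap. NT libraries, at 116, 91.7 and 129 CPM, reached into the Eed range and stayed below the Brd8 libraries, and Ezh2 libraries, at 160, 155 and 142 CPM, lay between the 2 groups. The call was lost in 5 of 13 alternatives: with all 41 libraries in the fit, without Brd8 replicate 1 (adjusted p = 0.206) or 2, and without Eed replicate 1 or 2 (adjusted p = 0.179).

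Hoxa5, which patterns cervical and brachial levels, lies in another cluster, on chromosome 6 from 52201754 to 52204587 on the minus strand. It was at 119, 91.7 and 104 CPM in Brd8 libraries, against 58.0, 51.2 and 62.8 CPM in Eed libraries, 1.83-fold higher (log2 0.87 ± 0.115, adjusted p = 0.00158). NT libraries held 83.1, 64.1 and 76.3 CPM, below every Brd8 library and above every Eed library. Set against NT in the fits of their own, Hoxa5 was higher in Brd8 libraries (log2 0.49, adjusted p = 0.00714) and lower in Eed libraries (log2 −0.38, adjusted p = 0.0276). With all 41 libraries in the fit the Brd8 over Eed call was lost (adjusted p = 0.199).

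The promoters of Hoxa5 and Hoxb8 are shown because both genes are classical PRC2 targets called higher in Brd8 than in Eed libraries, and that of Cyp26b1 because it had the largest positive fold change of the called genes. Each is the 250 bases upstream of the gene's start in RefSeq (GRCm38.p6), printed 5′ to 3′ on the gene's strand, with every CG dinucleotide in capitals. For Cyp26b1 that start differs from the GENCODE position given below, which reaches to 84593908. Part of its window therefore lies inside the gene by GENCODE. The windows are chr6:52204588-52204837 on the minus strand for Hoxa5, chr11:96281655-96281904 on the plus strand for Hoxb8 and chr6:84593811-84594060 on the minus strand for Cyp26b1.
Hoxa5: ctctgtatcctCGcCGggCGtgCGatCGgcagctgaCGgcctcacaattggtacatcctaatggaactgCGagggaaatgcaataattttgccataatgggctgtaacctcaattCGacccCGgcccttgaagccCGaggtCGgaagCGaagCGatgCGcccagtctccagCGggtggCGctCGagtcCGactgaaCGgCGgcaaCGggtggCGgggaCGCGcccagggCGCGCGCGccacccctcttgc
Hoxb8: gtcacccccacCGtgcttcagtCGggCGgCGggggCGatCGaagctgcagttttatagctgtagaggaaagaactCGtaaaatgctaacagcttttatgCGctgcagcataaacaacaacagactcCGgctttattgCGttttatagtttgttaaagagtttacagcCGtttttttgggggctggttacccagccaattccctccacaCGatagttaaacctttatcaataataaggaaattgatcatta
Cyp26b1: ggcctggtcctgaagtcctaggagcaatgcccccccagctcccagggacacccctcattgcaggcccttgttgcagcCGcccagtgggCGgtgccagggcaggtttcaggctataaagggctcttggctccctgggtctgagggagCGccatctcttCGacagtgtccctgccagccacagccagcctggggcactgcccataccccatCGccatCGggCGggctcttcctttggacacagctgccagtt
The motif searched was CG, which reads the same on both strands. Hoxa5 held 28, and 15.2% of the 9729 windows of tested genes held as many or more. Hoxb8 held 12 (70.7% with as many or more) and Cyp26b1 held 7 (86.7%), against a median of 17 over the 9729 windows and of 12 over the windows of 13 tested Hox genes. These counts describe the windows and do not mark a binding site.

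The other Hox genes are given from 3 lists, by paralogue group, that is by position along the clusters. Of groups 1 to 5, 14 of 15 genes were tested: 1 was called (Hoxa5, higher) and 13 had a positive log2 fold change, with a median of 0.24 against 0.00 over all tested genes. Of groups 6 to 9, 9 of 12 were tested: 2 were called, both higher (Hoxb9 and Hoxb8), and all 9 were positive, with a median of 0.53, or 0.50 over the 8 that passed the filter in both groups. Of groups 10 to 13, 1 of 12 was tested, Hoxd13, with −0.83 (adjusted p = 0.973). Unadjusted p-values under 0.05 were found for 6 of 14 and 6 of 9 genes of the first and second list, all on the higher side. The second count includes Hoxa6, which did not pass the filter in both groups. The share over all tested genes was 5.41%, either side. Counts of calls in groups 6 to 9 ran from 0, with all libraries in the fit, to 6, with no filter.

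Among the Hox genes that were not called, members of groups 6 to 9 had the largest positive differences. Hoxa6 was at 7.93, 10.3 and 9.17 CPM in Brd8 libraries, against 2.85, 0.863 and 5.75 CPM in Eed libraries (log2 1.52 ± 0.453, adjusted p = 0.496). Hoxa7 was at 13, 15.6 and 8.62 CPM in Brd8 libraries, against 5.24, 1.85 and 7.27 CPM in Eed libraries (log2 1.36 ± 0.374, adjusted p = 0.367). Neither gene's groups overlapped, and neither passed the test. Hoxc6, at 57.0, 60.8 and 32.6 CPM in Brd8 libraries against 19.6, 19.2 and 37.9 CPM in Eed libraries, overlapped through Brd8 replicate 3 and Eed replicate 3 (adjusted p = 0.208). In groups 1 to 5, Hoxb3 showed a small separation, 330, 328 and 344 CPM in Brd8 libraries against 286, 278 and 282 CPM in Eed libraries (log2 0.24 ± 0.0727, adjusted p = 0.496), while Hoxa2 and Hoxb4 overlapped.

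**Figure D2:**
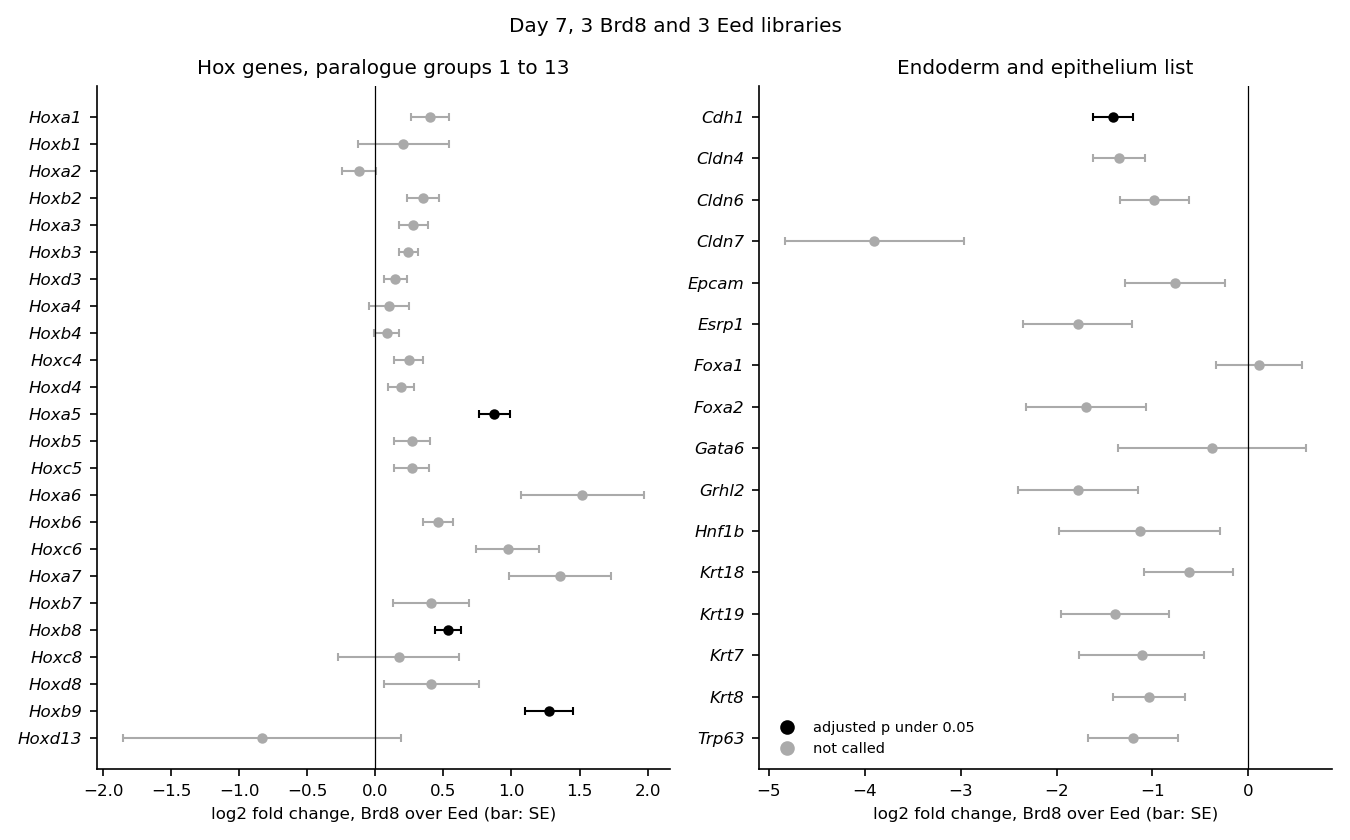
Log2 fold change of Brd8 over Eed at day 7 with its SE, for the tested Hox genes in the order of their paralogue groups (left) and the tested members of the endoderm and epithelium list (right). Black points passed an adjusted p of 0.05. All Hox genes but Hoxa2 and Hoxd13 lie right of 0, and all listed epithelial and endodermal genes but Foxa1 lie left of it.

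Added up over all 39 Hox genes of the table, the level was 2114, 2132 and 1978 CPM in Brd8 libraries, against 1603, 1557 and 1590 CPM in Eed libraries. Ezh2 libraries held 1620, 1626 and 1663 CPM and NT libraries 1628, 1487 and 1550 CPM. The Brd8 libraries stood above all others, and the NT libraries overlapped both the Eed and the Ezh2 libraries. No test is given for this sum, which the genes with the most counts dominate. It includes the called genes Hoxb9, Hoxb8 and Hoxa5 and is not given without them, so it is not separate from those calls. Hoxb9 alone averaged 229 CPM in Brd8 libraries and 94.8 CPM in Eed libraries.

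Cyp26b1, which breaks down retinoic acid, had the largest positive fold change of the called genes. It lies on chromosome 6 from 84571414 to 84593908 on the minus strand. It was at 14.1, 22.7 and 11 CPM in Brd8 libraries, against 5.24, 4.69 and 4.02 CPM in Eed libraries, 3.39-fold higher (log2 1.76 ± 0.299, adjusted p = 0.0155). Ezh2 libraries (3.59, 3.67 and 5.31 CPM) and NT libraries (3.57, 1.98 and 5.64 CPM) overlapped the Eed libraries, and all of them lay below the Brd8 libraries. The call was lost without Brd8 replicate 2 (the highest library) and without Eed replicate 2 (adjusted p = 0.0688).

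Of 18 genes of a retinoic acid list, 15 were tested and Cyp26b1 alone was called (1 higher, 0 lower; median log2 0.11). With no filter 3 were called, all higher. Aldh1a2, which makes retinoic acid, was at 40.3, 37.3 and 23.1 CPM in Brd8 libraries, against 16.7, 25.9 and 20.0 CPM in Eed libraries (log2 0.69 ± 0.206, adjusted p = 0.496), with overlap. Crabp2, a retinoic acid carrier, was at 234, 235 and 240 CPM in Brd8 libraries, against 268, 242 and 258 CPM in Eed libraries (log2 −0.12 ± 0.0772, adjusted p = 0.964).

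Prdm8, a PRDM-family repressor that acts in neural development (chromosome 5, 98167198 to 98188991, plus strand), was at 140, 144 and 148 CPM in Brd8 libraries, against 104, 86.1 and 84.6 CPM in Eed libraries. The difference was 1.57-fold (log2 0.65 ± 0.0974, adjusted p = 0.00361), and the groups did not overlap. NT libraries held 126, 106 and 105 CPM, between the 2 groups and overlapping neither. The call held in all 13 alternatives. Its exons share 1411 bases (29.1% of their length) with the antisense gene A730035I17Rik, so its count may include reads of that gene if counting ignored strand.

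**Figure D3:**
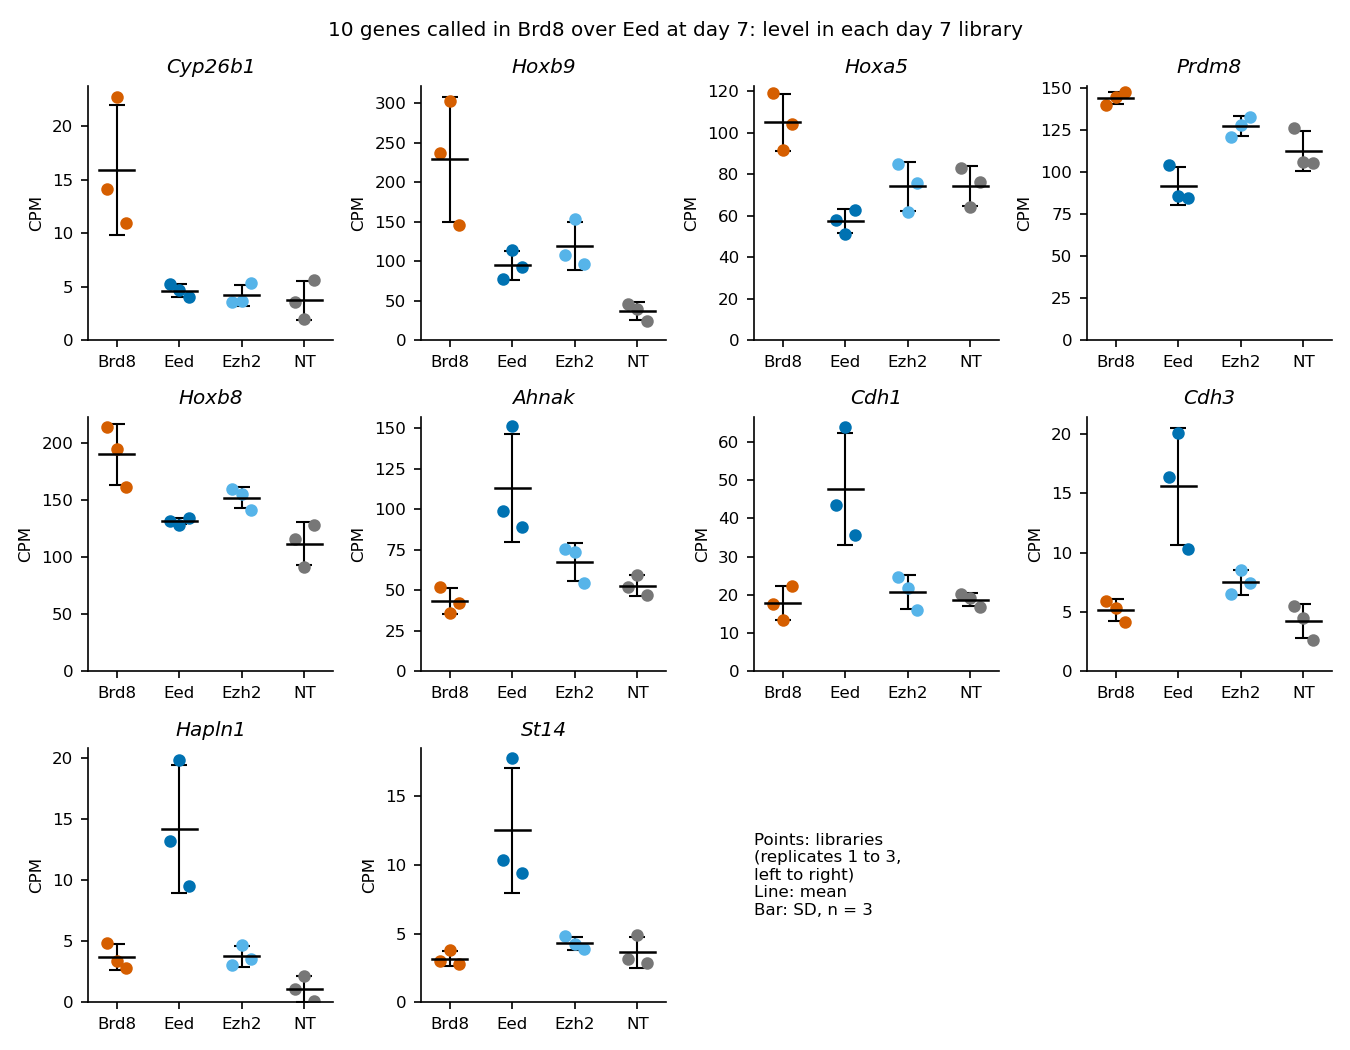
Level in CPM (vertical axes, from 0) of 10 called genes in every day 7 library of the Brd8, Eed, Ezh2 and NT groups, with the mean (line) and SD (bar, n = 3). For Cdh1, Ahnak, Cdh3, Hapln1 and St14 the Eed libraries stand above all others. For Cyp26b1, Hoxa5, Prdm8 and Hoxb8 the Brd8 libraries do, and for Hoxb9 they stand above the Eed and NT libraries.

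Of the genes lower in Brd8 than in Eed libraries, 2 encode cadherins. Cdh1, which encodes E-cadherin, the adhesion protein of epithelial junctions, lies on chromosome 8 from 106603351 to 106670246 on the plus strand. It was at 17.7, 13.3 and 22.2 CPM in Brd8 libraries, against 43.4, 63.9 and 35.6 CPM in Eed libraries, 2.66-fold lower (log2 −1.41 ± 0.205, adjusted p = 0.00336). NT libraries, at 20.2, 19.1 and 16.9 CPM, and Ezh2 libraries, at 24.6, 21.7 and 15.9 CPM, overlapped the Brd8 libraries and stayed below every Eed library. Eed replicate 2 was the highest library. Without it the log2 fold change was −1.15 ± 0.199 (adjusted p = 0.035), and with all 41 libraries in the fit the call was lost (adjusted p = 0.433).

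Cdh3, which encodes P-cadherin, lies 46.1 kb before Cdh1 on the same strand (106510891 to 106557297). It was at 5.97, 5.35 and 4.19 CPM in Brd8 libraries, against 16.3, 20.1 and 10.3 CPM in Eed libraries, 3.01-fold lower (log2 −1.59 ± 0.29, adjusted p = 0.0261). The groups did not overlap, and NT libraries (5.51, 4.47 and 2.67 CPM) overlapped the Brd8 libraries. The call was lost in 6 of 13 alternatives, among them without Eed replicate 2 (log2 −1.37, adjusted p = 0.339) and without Brd8 replicate 1 (adjusted p = 0.0855).

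St14, which encodes matriptase, a membrane protease of epithelia (chromosome 9, 31089402 to 31131853, minus strand), was at 3.03, 3.78 and 2.77 CPM in Brd8 libraries, against 10.3, 17.8 and 9.45 CPM in Eed libraries. It was 3.92-fold lower (log2 −1.97 ± 0.34, adjusted p = 0.0155), and NT libraries, at 3.14, 4.89 and 2.87 CPM, overlapped the Brd8 libraries. Without Eed replicate 2 the log2 fold change was −1.64 ± 0.379 (adjusted p = 0.336), and without Brd8 replicate 1 the adjusted p was 0.0855. The call was lost in 4 of 13 alternatives.

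Ahnak, which encodes a very large scaffold protein found beneath the plasma membrane (chromosome 19, 8989284 to 9076914, plus strand), had the smallest adjusted p. It was at 52.1, 35.8 and 42.1 CPM in Brd8 libraries, against 98.9, 151 and 88.9 CPM in Eed libraries, 2.59-fold lower (log2 −1.37 ± 0.163, adjusted p = 0.000624). NT libraries held 51.8, 59.6 and 46.9 CPM and overlapped the Brd8 libraries, and Ezh2 libraries, at 75.3, 73.7 and 54.2 CPM, lay between the groups. Without Eed replicate 2 it was still called (log2 −1.11 ± 0.14, adjusted p = 0.00206).

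Hapln1, which links hyaluronan to proteoglycans in the matrix (chromosome 13, 89539796 to 89611652, plus strand), was at 4.91, 3.36 and 2.85 CPM in Brd8 libraries, against 13.3, 19.9 and 9.55 CPM in Eed libraries. It was 3.82-fold lower (log2 −1.93 ± 0.331, adjusted p = 0.0155). NT libraries, at 1.06, 2.19 and 0.103 CPM, lay below both groups, and Ezh2 libraries, at 3.06, 4.68 and 3.57 CPM, overlapped the Brd8 libraries. The call was lost in 5 of 13 alternatives, and without Eed replicate 2 the adjusted p was 0.265 (log2 −1.62 ± 0.364).

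Other genes of epithelia were counted in a list of 24 endodermal and epithelial genes, which does not hold Cdh3 or St14. In it, 16 were tested, 0 were called higher and 1 was called lower (Cdh1). The log2 fold change was negative for 15 of 16, with a median of −1.17 against 0.00 over all tested genes. Among the 9 that passed the filter in both groups, 8 were negative and the median was −1.03. An unadjusted p under 0.05 was found for 10 of the 16, all lower, against 5.41% of all tested genes. Those 10 include genes that did not pass the filter in both groups. Counts of calls in this list ran from 0, with all libraries in the fit, to 3 with DESeq2 and 4 with no filter.

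The tight junction gene Cldn4 came next after the called genes. It was at 5.40, 6.51 and 7.43 CPM in Brd8 libraries, against 15.8, 21.5 and 12.2 CPM in Eed libraries (log2 −1.35 ± 0.267, adjusted p = 0.0589). The splicing regulator Esrp1 was at 3.93, 1.16 and 0.553 CPM in Brd8 libraries, against 4.64, 8.39 and 6.62 CPM in Eed libraries (log2 −1.78 ± 0.567, adjusted p = 0.583). Cldn7 had 0, 0.21 and 0.316 CPM in Brd8 libraries, under the level of a count of 3 or near it, against 2.17, 4.56 and 1.63 CPM in Eed libraries (adjusted p = 0.208). The groups did not overlap for these 3 genes, as for 11.2% of all tested genes. Esrp1 and Cldn7 fell under 0.92 CPM in Brd8 libraries and did not pass the filter in both groups. They were tested through their level in Eed libraries, so their separation carries no weight of its own. Foxa1, an endodermal and floor plate factor, overlapped (log2 0.11 ± 0.445).

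Summed over the 24 genes, the level was 67.6, 48.3 and 64.3 CPM in Brd8 libraries, against 127, 187 and 95.5 CPM in Eed libraries. Ezh2 libraries held 88.9, 75.3 and 53.4 CPM and NT libraries 52.7, 45.9 and 44.2 CPM. Each Eed library stood above every other library, and Eed replicate 2 was the highest. Without Cdh1 the sums were 50.0, 35.0 and 42.1 CPM in Brd8 libraries, against 83.4, 123 and 59.9 CPM in Eed libraries. The part of such cells in the called differences was not tested.

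**Figure D4:**
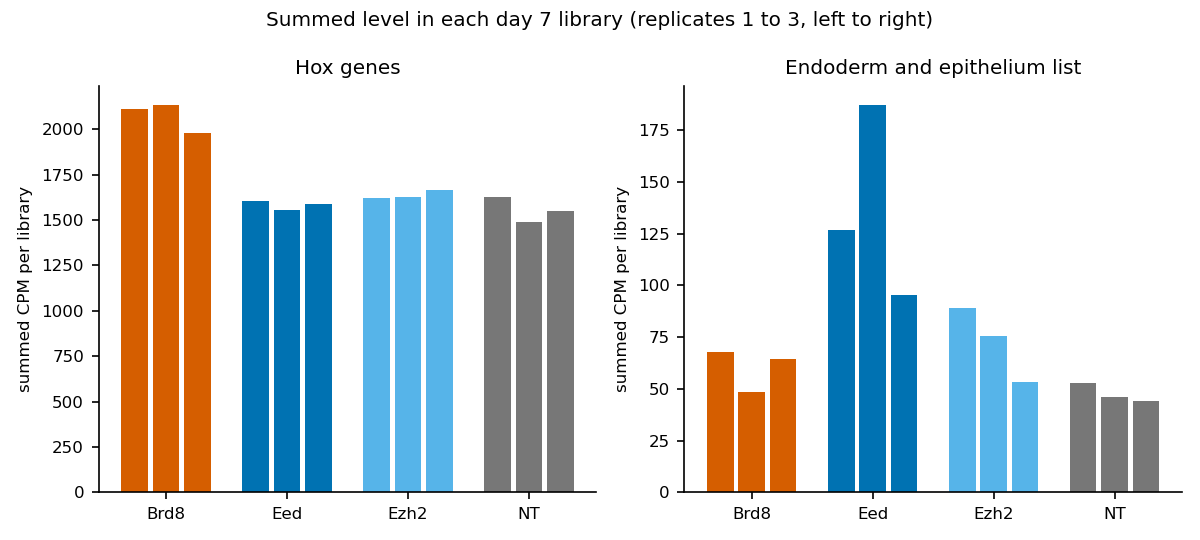
Summed level in CPM (bars from 0) of 39 Hox genes (left) and of the 24 genes of the endoderm and epithelium list (right) in each day 7 library of the Brd8, Eed, Ezh2 and NT groups. The Hox sum is highest in the 3 Brd8 libraries (1978 to 2132 CPM), and the epithelial sum in the 3 Eed libraries (95.5 to 187 CPM).

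In the complexes the guides target, no subunit passed the test, with edgeR or with DESeq2. Of PRC2 subunits, 11 were tested, 0 called and 0 had an unadjusted p under 0.05, with a median log2 fold change of −0.06 and a 95% interval inside 2-fold for 10. Ezh2 was at 314, 295 and 276 CPM in Brd8 libraries, against 335, 322 and 314 CPM in Eed libraries (log2 −0.13 ± 0.0767, adjusted p = 0.952). Of NuA4/TIP60 subunits, 18 were tested, 0 called and 1 had an unadjusted p under 0.05. The share over all tested genes was 5.41%. The median of these subunits was 0.00, with an interval inside 2-fold for 17. The subunit Mrgbp had the smallest adjusted p of that list, at 3.6, 6.4 and 8.14 CPM in Brd8 libraries, against 8.24, 14.9 and 7.27 CPM in Eed libraries (log2 −0.74 ± 0.353, adjusted p = 0.919), with overlap.

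The motor neuron and the pan-neuronal lists held no called gene. DESeq2's Wald test called 1 motor neuron gene and 1 pan-neuronal gene, both higher, leaving out Eed replicate 3 gave 3 and 1, and no filter gave 3 and 2, all higher. Of 19 motor neuron genes tested, 16 had a positive log2 fold change (median 0.29) and 10 an unadjusted p under 0.05, all higher. Among the 17 that passed the filter in both groups, 15 were positive (median 0.29). Over all tested genes 49.8% were positive and 5.41% had an unadjusted p under 0.05. Slit3, an axon guidance ligand, was at 183, 205 and 216 CPM in Brd8 libraries, against 129, 120 and 178 CPM in Eed libraries (log2 0.50 ± 0.116, adjusted p = 0.178). Mnx1, a motor neuron homeobox factor, was at 15, 14.8 and 17.1 CPM in Brd8 libraries, against 10.0, 4.81 and 10.2 CPM in Eed libraries (log2 0.89 ± 0.27, adjusted p = 0.507). For both genes the groups did not overlap. Of 29 neurogenesis and pan-neuronal genes, 25 were positive (median 0.16), and the neuronal transcription factor Myt1 was at 139, 154 and 162 CPM in Brd8 libraries, against 116, 91.3 and 123 CPM in Eed libraries (log2 0.46 ± 0.105, adjusted p = 0.171).

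Dorsal and intermediate progenitor genes lay on the other side of 0. Of 21 tested, 16 were negative (median −0.52) and 0 were called. Among the 17 that passed the filter in both groups, 14 were negative (median −0.52). An unadjusted p under 0.05 was found for 8 on the lower side and 1 on the higher, against 5.41% of all tested genes on either side. Those counts cover all 21 genes, also those that did not pass the filter in both groups. DESeq2 also called 0, and edgeR with no filter called 3 of 24, all lower. Pax3, a dorsal progenitor factor, was at 28.1, 25.6 and 13.2 CPM in Brd8 libraries, against 28.8, 53.5 and 32.7 CPM in Eed libraries (log2 −0.78 ± 0.241, adjusted p = 0.562). Wnt1, a dorsal midline signal, was at 25.4, 23.3 and 14.0 CPM in Brd8 libraries, against 27.5, 51.2 and 27.0 CPM in Eed libraries (log2 −0.75 ± 0.236, adjusted p = 0.579). Eed replicate 2 was the highest library for both.

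Of 18 neural crest genes tested, 11 were positive (median 0.20) and 0 were called. Among the 16 that passed the filter in both groups, 9 were positive (median 0.17). An unadjusted p under 0.05 was found for 2 on the higher side and 2 on the lower (5.41% over all tested genes, either side). DESeq2 called 1, lower, and no filter gave 2 higher and 2 lower. Ngfr, a neurotrophin receptor, was at 118, 114 and 107 CPM in Brd8 libraries, against 76.9, 64.8 and 100.3 CPM in Eed libraries (log2 0.49 ± 0.123, adjusted p = 0.284). Tfap2a, of early neural crest and surface ectoderm, was at 27.6, 28.2 and 20.2 CPM in Brd8 libraries, against 39.2, 45.5 and 38.6 CPM in Eed libraries (log2 −0.70 ± 0.159, adjusted p = 0.171). The groups did not overlap for either gene.

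Of the 38 lists, 34 held no called gene and 27 had a median log2 fold change within 0.25 of 0. The 32 cell cycle genes had a median of −0.09 with 0 called, 4 with an unadjusted p under 0.05 (5.41% over all tested genes) and every interval inside 2-fold. The same held for intervals of all 20 genes of the Notch pathway and all 22 of oxidative phosphorylation, with 0 called and 0 with an unadjusted p under 0.05 in each. The 23 tested genes of a list of bivalent developmental regulators, genes that PRC2 silences in stem cells, had a median of 0.00, 0 called and 0 with an unadjusted p under 0.05, with an interval inside 2-fold for 6. The highest list median, 1.12, belonged to 6 tested muscle genes, of which 1 passed the filter in both groups, with 0 called and 2 with an unadjusted p under 0.05. DESeq2 called 0 genes of these 5 lists.

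The same contrast at days 9 and 11 comes from other libraries. At day 11, 120 of 13584 genes were called (0.883%), 18 higher (0.133%) and 102 lower (0.751%) in Brd8 libraries. That count was 43 without Brd8 replicate 2, 53 without Brd8 replicate 3 and 60 without Eed replicate 2 of day 11. Of the 11 genes of day 7, 8 had the same direction at day 11 and 5 were called in it: Hoxb9, Ahnak, Cdh1, Cdh3 and St14. None was called in the opposite direction.

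Of the 5 genes lower in Brd8 libraries at day 7, Hapln1 alone was not called at day 11 (log2 −1.39 ± 0.692, adjusted p = 0.755). Cdh1 was at 16.4, 2.91 and 3.35 CPM in Brd8 libraries of day 11, against 74.8, 133 and 152 CPM in Eed libraries (log2 −3.99 ± 0.49, adjusted p = 0.00181). Ahnak was at 124, 54.3 and 68.6 CPM in Brd8 libraries, against 287, 385 and 573 CPM in Eed libraries (log2 −2.34 ± 0.285, adjusted p = 0.00178). St14 was at 2.45, 0.762 and 1.48 CPM in Brd8 libraries, against 11.1, 17.9 and 29.1 CPM in Eed libraries (log2 −3.63 ± 0.449, adjusted p = 0.00183). These 3 calls held in all 13 alternatives. At day 9 the same 3 genes did not overlap between the 2 Brd8 and 3 Eed libraries either. The nearest Brd8 and Eed libraries were at 7.15 and 10.0 CPM for Cdh1 and at 36.2 and 42.2 CPM for Ahnak. For St14 they were at 0.97 and 1.37 CPM. The share of all genes without overlap at day 9 is not given, so this separation was not weighed. Cldn4 and Esrp1, not called at day 7, were called at day 11, with log2 fold changes of −4.85 (adjusted p = 0.000947) and −4.71 (adjusted p = 0.000516).

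Among the genes higher in Brd8 libraries, Hoxb9 was again apart at day 11. It was at 595, 513 and 538 CPM in Brd8 libraries, against 298, 384 and 233 CPM in Eed libraries and 67.4, 88.6 and 68.8 CPM in NT libraries (Brd8 over Eed, log2 0.85 ± 0.143, adjusted p = 0.0136). At day 9 it was at 425 and 294 CPM in Brd8 libraries, against 84.4, 207 and 242 CPM in Eed libraries. The day 11 call was lost in 5 of 13 alternatives: with all 41 libraries in the fit, without any 1 of the 3 Brd8 libraries and without Eed replicate 1. Cyp26b1 overlapped at day 11, with 19, 29.2 and 25.3 CPM in Brd8 libraries, against 41.0, 25.7 and 18.9 CPM in Eed libraries (log2 −0.24 ± 0.252, adjusted p = 0.928).

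**Figure D5:**
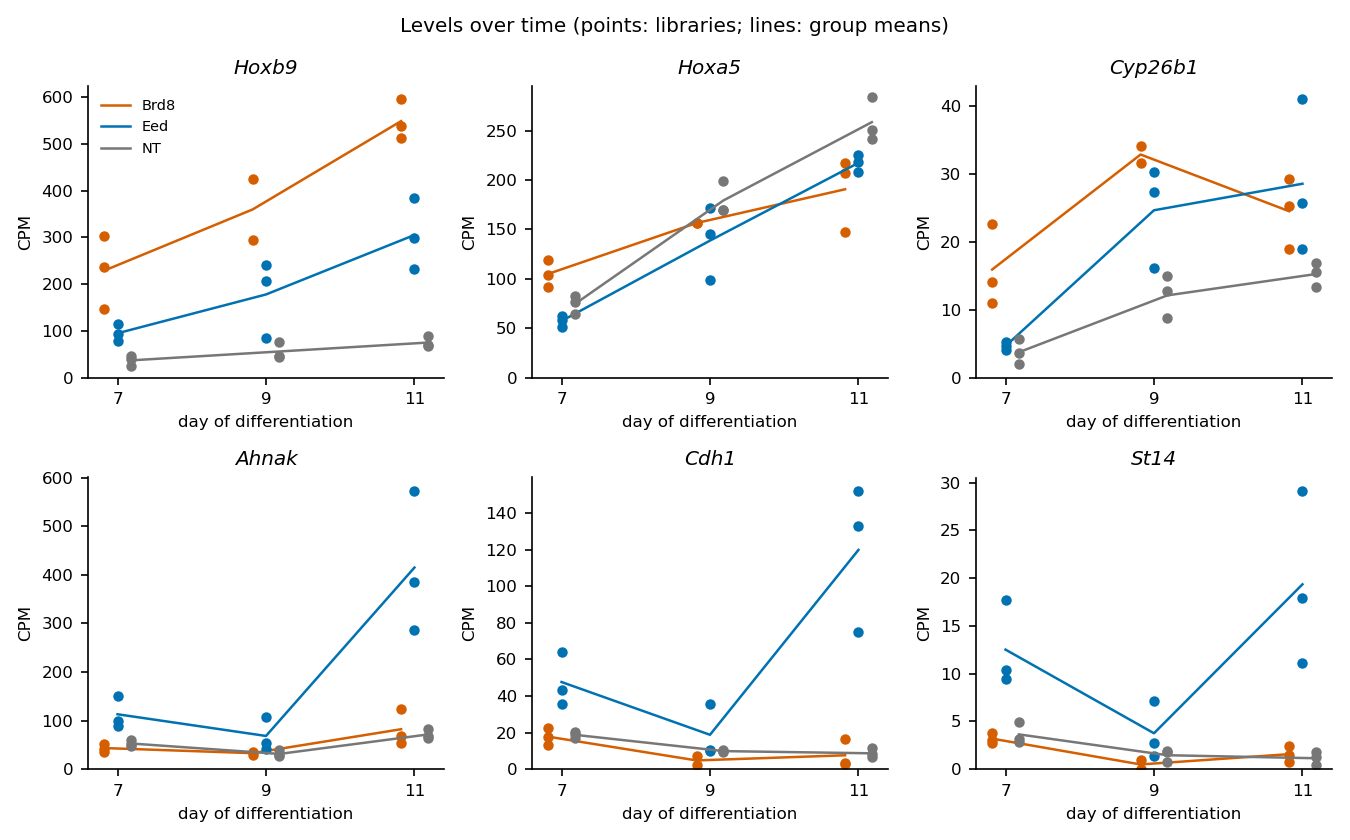
Level in CPM (vertical axes, from 0) at days 7, 9 and 11 of 3 genes called higher (top) and 3 called lower (bottom) in Brd8 over Eed at day 7, with 1 point per library and lines through the means of the Brd8, Eed and NT groups (2 libraries for Brd8 at day 9, otherwise 3). Brd8 libraries lie above Eed libraries at each day for Hoxb9 and below them for Ahnak, Cdh1 and St14, while for Hoxa5 and Cyp26b1 the groups overlap by day 11.

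Whether the contrast itself differed between day 11 and day 7 was tested in the 12 libraries of both days. Of 14029 genes tested, 3 were called (0.0214%), 0 with a higher and 3 with a lower Brd8 over Eed difference at day 11: Dsc2, Hoxa5 and Lama5. These calls were not stable: with a replicate block, without Brd8 replicate 1 or 2 or Eed replicate 1 of day 7, and without Brd8 replicate 2 or 3 or Eed replicate 3 of day 11, 0 genes were called. Without Eed replicate 2 of day 7 it was 1. Without Eed replicate 3 of day 7 or Eed replicate 2 of day 11 it was 1 gene outside the 3, and without Brd8 replicate 1 of day 11 it was 17. Hoxa5 was at 147, 218 and 207 CPM in Brd8 libraries of day 11, against 218, 226 and 208 CPM in Eed libraries, with overlap. Its log2 fold change was −0.19 at day 11 and 0.87 at day 7, a difference of −1.06 ± 0.18 (adjusted p = 0.0459), and its call was lost in 13 of 19 alternatives. For Cyp26b1 the difference was −1.99 ± 0.407 (adjusted p = 0.136) and for Cdh1 −2.58 ± 0.573 (adjusted p = 0.184), so a change with time was not shown for either gene.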

How the data were processed

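The values used were estimated counts per gene symbol and library (24410 symbols, 41 libraries) that the authors deposited as raw counts. Of all values 2.95% were not whole, and each was rounded to the nearest whole count. The genome build mm10 and DESeq2 are named in the submitters' processing notes. Which aligner, quantifier and annotation were used is not given in the sources used here. Per the labels' protocols, total RNA was ribodepleted and made into directional libraries, although the labels call the molecule genomic DNA.

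Libraries were grouped by guide target and day from their titles. Library sizes were scaled by TMM over all 41 libraries in edgeR 4.0.16 (R 4.3.3), and levels are CPM on that scale. The 6 Brd8 and Eed libraries of day 7 went through filterByExpr with their 2 groups, which left 12897 genes (11513 symbols were not tested), and were compared with edgeR's quasi-likelihood test, two-sided, with Benjamini-Hochberg adjustment over all tested genes and a threshold of 0.05. The common biological coefficient of variation was 0.163 and the prior degrees of freedom were 16.2. The difference between days was tested the same way in 12 libraries. Fold changes are Brd8 over Eed, ± is the SE of the log2 fold change, and the CPM given for a count of 3 covers counting error only.

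Alternatives were DESeq2 size factors, TMM of the fitted libraries, DESeq2 1.42.0, no filter, all libraries in the fit, a replicate block, Rn45s left out, and each library left out. The test at day 11 and the tests against NT were added after the data had been seen. So were the list medians over genes that pass in both groups, that is with at least 0.92 CPM in every library of each.

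Named are the 12 highest and 12 lowest called genes whose higher group averages 2 CPM or more and whose groups do not overlap (all 11 called genes met this, and 1 of them is not reported here), and up to 4 members of each list by adjusted p, with Hoxa2, Hoxb4, Hoxa6, Hoxa7, Crabp2 and Foxa1 beside them, chosen after their values were seen. The comparison and the 38 gene lists were chosen with earlier results of these data known. Gene positions are those of GENCODE M21 (GRCm38, the mm10 assembly), and promoter sequences are from RefSeq (GRCm38.p6).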

Additional observations from a re-analysis of the deposited data

Results flagged for a closer look

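For 3 genes the Brd8 over Eed difference at day 11 differed from that at day 7 by a test of the difference itself (edgeR's quasi-likelihood test over 12 libraries, Benjamini-Hochberg over 14029 genes). Dsc2, a desmosomal cadherin, had a difference of −4.17 ± 0.665 on the log2 scale (adjusted p = 0.0327). It was at 4.99, 4.62 and 1.98 CPM in Brd8 libraries of day 7, against 4.34, 4.93 and 2.28 CPM in Eed libraries, and at 1.27, 0.832 and 0.296 CPM in Brd8 libraries of day 11, against 10.7, 16.6 and 17.1 CPM in Eed libraries. The groups overlapped at day 7 and did not at day 11.

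Lama5, a laminin chain of basement membranes, had a difference of −1.73 ± 0.272 (adjusted p = 0.0327). It was at 55.5, 63.7 and 58.2 CPM in Brd8 libraries of day 7, against 64.3, 98.3 and 69.4 CPM in Eed libraries, and at 29.3, 15.6 and 18.4 CPM in Brd8 libraries of day 11, against 74.3, 95.1 and 105 CPM in Eed libraries. The groups overlapped at neither day.

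Hoxa5 had a difference of −1.06 ± 0.18 (adjusted p = 0.0459). Over 19 alternatives the call held in 8 for Dsc2, 9 for Lama5 and 6 for Hoxa5, and each kept its direction in all 19.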

How the results depend on the processing

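At day 7, 11 genes were called, and 11 were called with DESeq2 size factors, with TMM of the fitted libraries or without Rn45s. DESeq2's Wald test called 33 (10 of the 11 among them, Hoxb9 not), no filter 87 (all 11), and all libraries in the fit 14, with 4 of the 11 (Ahnak, Cyp26b1 and Prdm8 among them). Leaving out 1 library gave 6 to 31. At day 11, with 120 called, DESeq2 called 236, no filter 259, all libraries in the fit 52, and leaving out 1 library gave 43 to 115. For the difference between days, with 3 called, DESeq2 called 24, no filter 81 and all libraries in the fit 2, with 0 of the 3, and leaving out 1 library gave 0 to 17. The cause of these changes was not tested.

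Whether the replicate numbers pair the libraries was not settled. The deviations of Brd8 and Eed libraries of the same number correlated weakly across genes, at 0.05, 0.045 and 0.097. Those of different numbers correlated at −0.085 to 0.033, so each library correlated best with its own number. With a replicate block, 18 genes were called at day 7, all 11 among them, 93 at day 11 and 0 for the difference between days.

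With 3 libraries in each group and 0.225 to 0.37 CPM for a count of 3, differences of low genes were not detectable at this depth unless large. The interval stayed inside 2-fold for 77.2% of tested genes, and for the others a change of that size cannot be read as absent.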
